A study of Homo sapiens with 6 samples.

Results

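The kinetochore and centromere genes described here are 36 genes, taken by symbol from the deposited expression table of 58735 genes: the *CENP* genes, the KNL1, MIS12 and NDC80 complexes of the outer kinetochore (the KMN network), the SKA complex, and the *INCENP*, *BIRC5* and *CDCA8* subunits of the chromosomal passenger complex. The genes were picked by symbol, with earlier results of these data known. All 36 were found, and 35 were expressed highly enough to be tested. RNA sequencing was done on TPC-1, a line established from a human papillary thyroid carcinoma. The 3 TPC-1 libraries came from the wild strain, and the 3 RRM2-OE-TPC-1 libraries came from the same line infected with a lentivirus (LV18) that carries *RRM2* under a CMV promoter, followed by puromycin selection. *RRM2* encodes the small subunit of ribonucleotide reductase, which makes deoxyribonucleotides for DNA synthesis. No library of cells with an empty vector was analysed here, so the added gene, the infection and the selection cannot be told apart, and every value is from 1 cell line.

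The centromere is the stretch of chromosome on which the kinetochore is built, and it is marked by nucleosomes that hold CENP-A in place of histone H3. On these sits the inner kinetochore, the constitutive centromere associated network (CCAN) of CENP-C and the CENP-H/I/K/M, L/N, O/P/Q/U and T/W/X groups. The CCAN recruits the KMN network, whose NDC80 complex holds spindle microtubules, and the SKA complex strengthens that hold. The chromosomal passenger complex brings the kinase Aurora B to the inner centromere, where it releases wrongly attached microtubules. Transcripts of many of these genes are known to be scarce in resting cells and to accumulate before mitosis. In bulk RNA, a larger share of cells in a phase of the cycle and more transcript per cell cannot be told apart.

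Values are FPKM (fragments scaled to exon length and to library depth, a level per length, so that genes can be compared), always given in the order of replicates 1, 2 and 3. A log2 fold change is RRM2-OE-TPC-1 over TPC-1 on the log2(FPKM + 0.1) scale, with its standard error (SE) from limma and a p-value adjusted by Benjamini-Hochberg over all 13621 genes tested. A gene is said to have risen or fallen where that p was at most 0.05, and to have passed both thresholds where its log2 fold change was also 1 or more in size. *RRM2* itself, the check of the labels, stood at 9.17, 9.05 and 8.52 FPKM in TPC-1 and at 50.4, 47.5 and 47.2 FPKM in RRM2-OE-TPC-1, a log2 fold change of 2.43 (SE 0.0442, n = 3 per group, limma adjusted p = 1.11e-08). The libraries held 14317091 to 17084067 reads on genes, of which 4.29% to 5.89% were mitochondrial. Replicate 1 of RRM2-OE-TPC-1 stood further from replicates 2 and 3 (5.30 and 6.00 chi-square units per gene) than these stood from each other (1.82), and results that change without it are marked. Of the thyroid follicular markers, *PAX8* was at 67.3 to 70.8 FPKM in TPC-1 against 56.3 to 59.8 FPKM in RRM2-OE-TPC-1. *NKX2-1* was listed at 0 in all 6 libraries, and thyroglobulin (*TG*) was at 0.0267 to 0.113 FPKM over the 6. The summed level of the list, most of it *PAX8*, was 74.0 to 77.9 FPKM in TPC-1 against 64.3 to 67.7 FPKM in RRM2-OE-TPC-1. The tested genes of this list did not move together. *PAX8* and *FOXE1* fell (*FOXE1* mean 4.30 against 3.19 FPKM, log2 fold change -0.42), while *HHEX* rose (mean 2.47 against 4.61 FPKM, log2 fold change 0.87). Among markers of other cell types, the endothelial list summed to 0.873 to 1.05 FPKM and 0.0667 to 0.115 FPKM, the fibroblast list to 2.78 to 3.16 and 2.78 to 2.94 FPKM, and the leukocyte list to 0.431 to 0.460 and 0.143 to 0.304 FPKM in the respective groups. In TPC-1, nearly all of the endothelial sum was *PECAM1* (mean 0.924 against 0.0588 FPKM in RRM2-OE-TPC-1). Most of the leukocyte sum there was *CD14* (mean 0.386 against 0.146 FPKM). The means of *VWF* and *CSF1R* were higher in RRM2-OE-TPC-1, at very low levels. The epithelial list summed to 42.9 to 47.1 FPKM in TPC-1 against 88.4 to 90.8 FPKM in RRM2-OE-TPC-1. Nearly all of this sum was *KRT18*, with means of 41.2 and 85.2 FPKM in the respective groups. The other genes of the list did not move together. *KRT8* rose (mean 2.56 against 3.48 FPKM), and *EPCAM* and *KRT19* were higher at very low levels. *KRT7* was lower without passing the test (mean 1.18 against 1.01 FPKM), and *CDH1*, too low to be tested, was lower as well (mean 0.0786 against 0.0508 FPKM). The part of these differences in the results below was not tested.

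Most kinetochore and centromere genes rose in RRM2-OE-TPC-1, by a moderate amount, and the rise was uneven within complexes. Of the 35 tested, 29 rose, where 34.9% of all tested genes rose, and 2 fell (*PMF1* and *SKA2*), where 32.7% of all tested genes fell. The 8 that passed both thresholds were all higher (*CENPI*, *SPC24*, *ZWINT*, *CENPX*, *CENPW*, *INCENP*, *KNL1* and *CENPO*), beside 4.48% of all tested genes past both thresholds in that direction and 6.97% in the other. The median log2 fold change of the 35 was 0.73, the median over all tested genes was 0.01, and the 35 ranged from -0.28 (*PMF1*) to 1.49 (*CENPI*). In 30 of the 35, each RRM2-OE-TPC-1 library lay above each TPC-1 library, which held for 37.3% of all tested genes, and in 2 each lay below, which held for 35% of all tested genes (72.2% for either direction). *CENPA*, *CENPB* and *MIS12* were the 3 with overlapping groups. Without TPC-1 replicate 2, *CENPK* also passed both thresholds (9 genes), and with a test against a log2 fold change of 1 (limma treat) 4 of the 8 remained: *CENPI*, *CENPX*, *SPC24* and *ZWINT*.

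**Figure D1:**
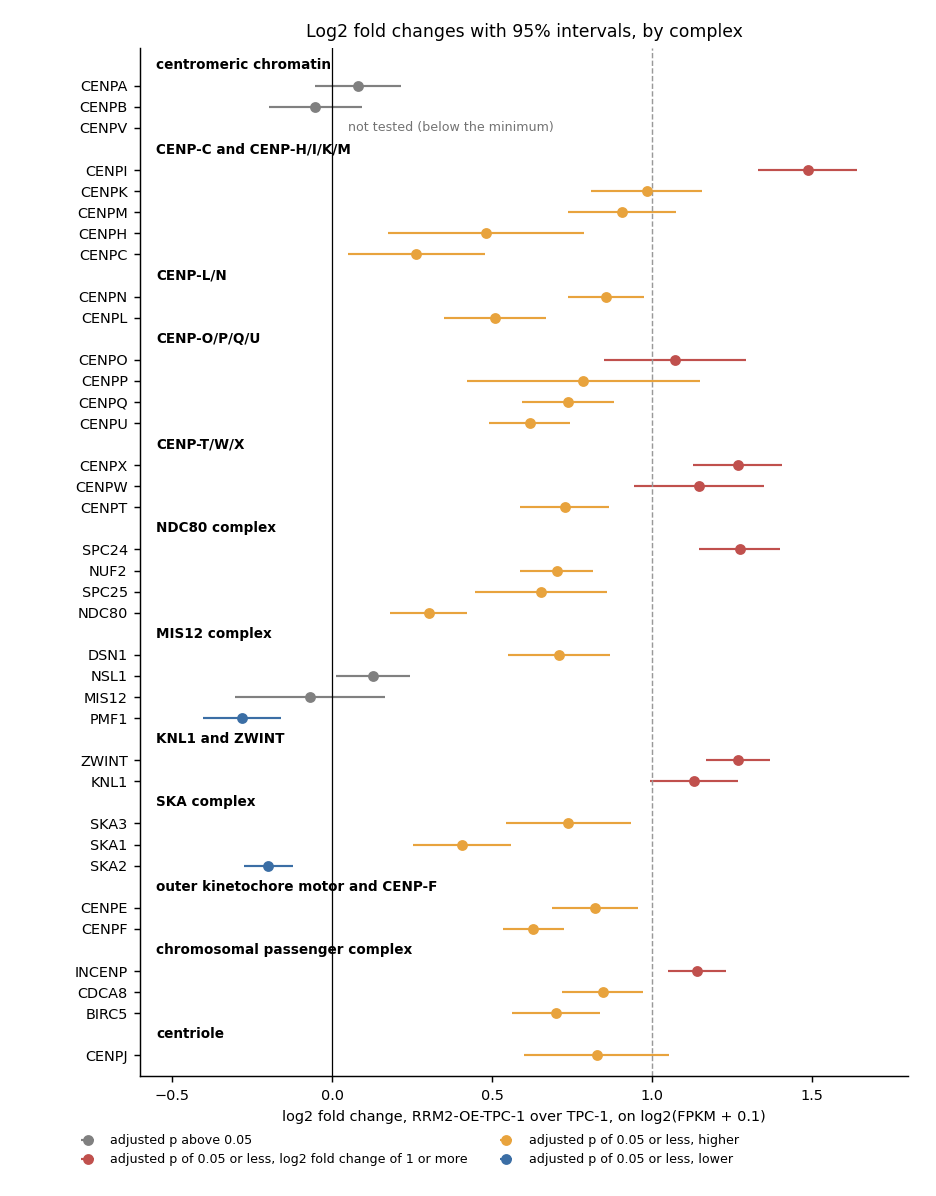
Log2 fold change (x axis, RRM2-OE-TPC-1 over TPC-1) of the 35 tested kinetochore and centromere genes (y axis, grouped by complex), with 95% intervals from limma and n = 3 per group. The 8 genes at or past the dashed line at 1 with an adjusted p of 0.05 or less are red, the other risen genes orange, *PMF1* and *SKA2* blue, and the 4 that did not pass the test grey.

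**Figure D2:**
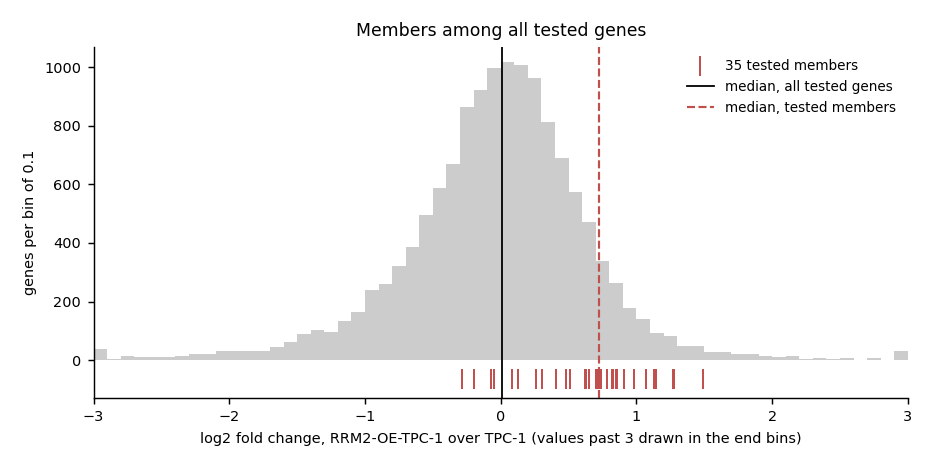
Histogram of the log2 fold changes of all 13621 tested genes (y axis, genes per bin of 0.1), with a tick under it for each of the 35 tested kinetochore and centromere genes. The median of all tested genes (solid line) lies at 0.01 and that of the 35 (dashed line) at 0.73, and the ticks run from -0.28 to 1.49.

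Promoters of mitotic genes commonly carry the cell cycle homology region (CHR, TTTGAA), through which the DREAM and B-MYB complexes bind, and CCAAT boxes, bound by NF-Y, while E2F sites (GCGGGAA was searched) are typical of genes of the G1/S boundary. RefSeq promoters of 250 bases before to 50 after the start were at hand for 30 of the 36 genes on GRCh38.p14, and both strands were searched. TTTGAA was found for 13 of the 30 (43.3%) and in 15.2% of all 35116 promoters of the same length, CCAAT for 18 (60%) against 34.6%, and GCGGGAA for 6 (20%) against 6.55%. For 3 genes with several promoters (*CENPP*, *MIS12* and *ZWINT*), a match in any of them counted, and in *CDCA8* a TTTGAA and a CCAAT match overlapped. The median log2 fold change was 0.70 for the 13 genes with TTTGAA and 0.73 for the 16 tested ones without it, and 0.76 (18 genes) against 0.71 (11 genes) for CCAAT. For GCGGGAA it was 0.24 for the 6 genes with a match (*CENPA*, *CENPB*, *CENPN*, *MIS12*, *SKA1* and *SPC25*) and 0.74 for the 23 without, a description over few genes. Promoters of 6 genes are printed, 5′ to 3′ on the gene's own strand with matches in capitals (a match on the other strand appears as its reverse complement). They set side by side genes that share a motif and moved differently, though the pairs differ in the strand of the matches or in other matches. *CENPX* (chr17:82022829-82023128, minus strand, log2 fold change 1.27) and *SKA2* (chr17:59155137-59155436, minus strand, -0.20) each hold 5 CCAAT boxes, as 0.359% of all promoters do, at spacings of 47 to 51 bases in *CENPX* and 28 to 75 bases in *SKA2*. *CENPA* (chr2:26785806-26786105, plus strand, 0.08) and *INCENP* (chr11:62123761-62124060, plus strand, 1.14) each have a TTTGAA just before the start, at positions -18 and -10, and CCAAT boxes upstream of it. *CENPA* also has a GCGGGAA match, at -231 on the other strand, which *INCENP* lacks. *NDC80* (chr18:2571307-2571606, plus strand, 0.30) and *SPC25* (chr2:168890381-168890680, minus strand, 0.65) encode subunits of the same complex and have the CHR letters at position -3. In *NDC80* they are on the other strand and are the only match. *SPC25* also has TTTGAA at -247, CCAAT boxes at -88 and -56, and GCGGGAA at -20. Over the tested genes with a match, log2 fold changes ran from 0.08 to 1.27 for TTTGAA, -0.28 to 1.27 for CCAAT and -0.07 to 0.86 for GCGGGAA. Both genes that fell, *PMF1* and *SKA2*, had CCAAT matches and no TTTGAA match, as had several genes that rose, among them *CENPW*, *CENPX* and *SPC24*. Any part of these motifs in the changes was not tested.
CENPX: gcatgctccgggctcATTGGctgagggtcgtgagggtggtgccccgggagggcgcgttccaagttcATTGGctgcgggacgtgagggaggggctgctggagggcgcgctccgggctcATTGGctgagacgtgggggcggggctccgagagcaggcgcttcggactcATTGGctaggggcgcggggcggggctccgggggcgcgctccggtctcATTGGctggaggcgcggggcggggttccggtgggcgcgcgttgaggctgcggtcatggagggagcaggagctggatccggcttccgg
SKA2: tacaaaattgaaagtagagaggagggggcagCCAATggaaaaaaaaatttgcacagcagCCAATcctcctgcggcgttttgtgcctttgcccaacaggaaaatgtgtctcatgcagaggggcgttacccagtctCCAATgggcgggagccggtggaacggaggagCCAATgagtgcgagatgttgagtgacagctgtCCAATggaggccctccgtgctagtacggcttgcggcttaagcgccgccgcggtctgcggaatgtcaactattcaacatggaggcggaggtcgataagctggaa
CENPA: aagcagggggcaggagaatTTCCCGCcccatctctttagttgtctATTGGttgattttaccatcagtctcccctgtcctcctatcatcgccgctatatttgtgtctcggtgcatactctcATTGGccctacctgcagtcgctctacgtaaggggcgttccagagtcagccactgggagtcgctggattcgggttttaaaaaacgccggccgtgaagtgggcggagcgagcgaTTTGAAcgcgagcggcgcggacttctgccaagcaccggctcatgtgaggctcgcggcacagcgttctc
INCENP: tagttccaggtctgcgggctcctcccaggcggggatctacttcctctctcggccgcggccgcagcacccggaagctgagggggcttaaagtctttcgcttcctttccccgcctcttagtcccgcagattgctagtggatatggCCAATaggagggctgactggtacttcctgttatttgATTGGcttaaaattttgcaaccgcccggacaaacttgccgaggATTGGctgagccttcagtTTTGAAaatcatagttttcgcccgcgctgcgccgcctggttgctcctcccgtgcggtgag
NDC80: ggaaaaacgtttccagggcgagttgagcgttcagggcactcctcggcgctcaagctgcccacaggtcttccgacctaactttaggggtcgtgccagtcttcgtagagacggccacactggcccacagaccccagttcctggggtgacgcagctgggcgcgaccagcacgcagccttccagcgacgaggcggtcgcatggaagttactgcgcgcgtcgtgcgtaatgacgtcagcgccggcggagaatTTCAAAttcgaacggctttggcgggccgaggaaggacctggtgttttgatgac
SPC25: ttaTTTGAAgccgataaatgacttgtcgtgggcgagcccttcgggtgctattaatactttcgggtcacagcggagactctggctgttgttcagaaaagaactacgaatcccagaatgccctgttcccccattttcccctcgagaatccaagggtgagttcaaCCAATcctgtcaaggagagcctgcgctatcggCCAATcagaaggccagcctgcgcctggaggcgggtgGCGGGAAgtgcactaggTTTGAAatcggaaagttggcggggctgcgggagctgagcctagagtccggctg

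The genes of centromeric chromatin itself did not pass the test. *CENPA* (ENSG00000115163, chromosome 2, 26764289 to 26801067 on GRCh38), the histone variant that defines the centromere, was at 11.5, 11.9 and 12.3 FPKM in TPC-1 and at 11.7, 12.7 and 13.4 FPKM in RRM2-OE-TPC-1. The groups overlapped, with RRM2-OE-TPC-1 replicate 1 inside the TPC-1 range. Its log2 fold change was 0.08 (95% interval -0.05 to 0.22, limma adjusted p = 0.249), so a rise of the size of the median member lay outside the interval, and without RRM2-OE-TPC-1 replicate 1 it was 0.14 with an adjusted p of 0.0483. A share of 6.96% of the *CENPA* exon bases also belongs to exons of *SLC35F6* on the same strand, a gene at 29.3 FPKM on average, so its reads are partly uncertain. The RefSeq start of the printed promoter lies inside the *CENPA* gene span, and the printed promoters of *CENPX* and *SPC25* also lie wholly inside their gene spans. *CENPB* (chromosome 20, 3783851 to 3786690), which binds the CENP-B box of alpha satellite DNA, was at 30.9, 29.1 and 28.6 FPKM against 31.3, 27.9 and 26.4 FPKM, with a log2 fold change of -0.05 (95% interval -0.20 to 0.09, limma adjusted p = 0.481). It was among the most abundant of the 36 in TPC-1, and its groups overlapped. *CENPV*, known for a role in centromere structure, was not tested, since it stood at 0.437, 0.516 and 0.349 FPKM in TPC-1 against 0.120, 0.0405 and 0.283 FPKM in RRM2-OE-TPC-1, which are 2 to 25 reads per library.

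By contrast with *CENPA*, the genes whose products load CENP-A onto chromatin rose. *HJURP*, the CENP-A chaperone, was at 13.6, 11.4 and 12.8 FPKM in TPC-1 and at 23.3, 25.2 and 25.2 FPKM in RRM2-OE-TPC-1 (log2 fold change 0.96, SE 0.0668, limma adjusted p = 6.30e-06). The Mis18 complex, which licenses loading, rose as well, with log2 fold changes of 0.92 for *OIP5* and 0.72 for *MIS18A*. The ratio of *HJURP* to *CENPA* in FPKM was 1.06 ± 0.113 (SD, n = 3) in TPC-1 against 1.95 ± 0.0653 in RRM2-OE-TPC-1, without overlap between the libraries. Ratios between genes, here and below, are descriptions without a test. These 3 loading genes are not among the 36, and the ratio was chosen after the values were seen.

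All 14 CCAN genes tested, CENP-C included, rose, where 34.9% of all tested genes rose. Of the 14, 4 passed both thresholds, beside 4.48% of all tested genes in that direction. *CENPI* (ENSG00000102384, chromosome X, 101098218 to 101163681), part of the CENP-H/I/K/M group, was at 2.32, 2.09 and 2.18 FPKM in TPC-1 and at 6.53, 6.27 and 6.19 FPKM in RRM2-OE-TPC-1. All 3 RRM2-OE-TPC-1 libraries were above all 3 TPC-1 libraries, and the log2 fold change of 1.49 (SE 0.067, limma adjusted p = 7.09e-07) was the highest of the 35. Its partners moved less, with log2 fold changes of 0.98 for *CENPK*, 0.91 for *CENPM* and 0.48 for *CENPH*. *CENPC* (chromosome 4, 67468748 to 67545606), the scaffold that binds CENP-A nucleosomes directly, had the lowest log2 fold change of the 14. It was at 2.21, 2.62 and 2.44 FPKM in TPC-1 and at 3.11, 2.95 and 2.71 FPKM in RRM2-OE-TPC-1, so the groups did not overlap but the nearest libraries were close. The log2 fold change was 0.26 (SE 0.0931, limma adjusted p = 0.0350), and it lost the call without TPC-1 replicate 1 or 3 and without RRM2-OE-TPC-1 replicate 1 or 2 (adjusted p of 0.107 at most). In TPC-1 the levels of *CENPI* and *CENPC* were alike, with a ratio of 0.914 ± 0.127 (SD, n = 3), and in RRM2-OE-TPC-1 *CENPI* stood above *CENPC*, with a ratio of 2.17 ± 0.0983.

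The CENP-T/W/X group had the highest median log2 fold change of the CCAN groups (1.15). *CENPX* (ENSG00000169689, chromosome 17, 82018702 to 82024107), a histone-fold protein, was at 8.53, 8.82 and 7.71 FPKM in TPC-1 and at 19.3, 21.0 and 20.4 FPKM in RRM2-OE-TPC-1 (log2 fold change 1.27, SE 0.0603, limma adjusted p = 9.18e-07). *CENPW* (ENSG00000203760, chromosome 6, 126340174 to 126348875), the histone-fold partner of CENP-T, was at 10.2, 10.2 and 11.8 FPKM against 26.7, 21.5 and 23.6 FPKM (log2 fold change 1.15, SE 0.0879, limma adjusted p = 1.07e-05). Both genes were higher in every RRM2-OE-TPC-1 library than in any TPC-1 library. *CENPT* (chromosome 16, 67828157 to 67847811), whose long arm recruits the NDC80 complex, rose less, from 5.21, 4.66 and 4.93 FPKM to 8.31, 8.49 and 7.89 FPKM (log2 fold change 0.73, SE 0.0603, limma adjusted p = 1.62e-05). *CENPS*, the fourth histone-fold gene, is not among the 36 and was low, at 0.513 to 0.613 FPKM in TPC-1 against 0.796 to 1.48 FPKM in RRM2-OE-TPC-1 (log2 fold change 0.90, limma adjusted p = 0.00672). The exons of *CENPT* share 10.8% of their bases with *TSNAXIP1* and 6.86% with *THAP11* on the opposite strand.

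In the CENP-O/P/Q/U group all 4 genes rose, with log2 fold changes from 0.62 to 1.07, where 34.9% of all tested genes rose. *CENPO* (ENSG00000138092, chromosome 2, 24793136 to 24822376) was at 3.33, 2.82 and 2.68 FPKM in TPC-1 and at 5.82, 6.28 and 6.77 FPKM in RRM2-OE-TPC-1, without overlap (log2 fold change 1.07, SE 0.0956, limma adjusted p = 2.45e-05). A share of 27% of its exon bases lies opposite exons of *ADCY3*, and since the use of strand in the counting is not stated the 2 genes' reads may be mixed. *CENPU* (chromosome 4, 184694618 to 184734133), the docking site of the kinase PLK1 at the inner kinetochore, was the most abundant of the group and rose from 7.45, 7.07 and 6.63 FPKM to 10.5, 11.1 and 10.9 FPKM (log2 fold change 0.62, SE 0.055, limma adjusted p = 2.43e-05). *CENPQ*, which helps CENP-E reach the kinetochore, rose by a log2 fold change of 0.74. *CENPP* was the lowest of the tested genes, at 0.557 to 0.680 FPKM in TPC-1 against 1.01 to 1.37 FPKM in RRM2-OE-TPC-1 (log2 fold change 0.79, limma adjusted p = 0.00247), and 38% of its exon bases lie opposite *IPPK*. For *CENPU* the share opposite *PRIMPOL* is 11.7%. *ITGB3BP*, which encodes CENP-R of this group and is not among the 36, had a smaller rise, with a log2 fold change of 0.23 (limma adjusted p = 0.0231).

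The CENP-L/N pair links the CCAN to the CENP-A nucleosome. *CENPN* (chromosome 16, 81006498 to 81033114), which touches the CENP-A nucleosome itself, was at 5.49, 5.37 and 5.36 FPKM in TPC-1 and at 10.4, 9.77 and 9.46 FPKM in RRM2-OE-TPC-1, without overlap (log2 fold change 0.86, SE 0.0518, limma adjusted p = 2.94e-06). *CENPL* (chromosome 1, 173799550 to 173824720) was at 3.76, 3.92 and 4.19 FPKM against 6.04, 5.48 and 5.49 FPKM, again without overlap (log2 fold change 0.51, SE 0.069, limma adjusted p = 2.76e-04). The ratio of *CENPN* to *CENPL* went from 1.37 ± 0.0908 to 1.74 ± 0.0356 (SD, n = 3), with each RRM2-OE-TPC-1 library above each TPC-1 library. Exons of *CMC2* lie opposite 12.8% of the *CENPN* exon bases.

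**Figure D3:**
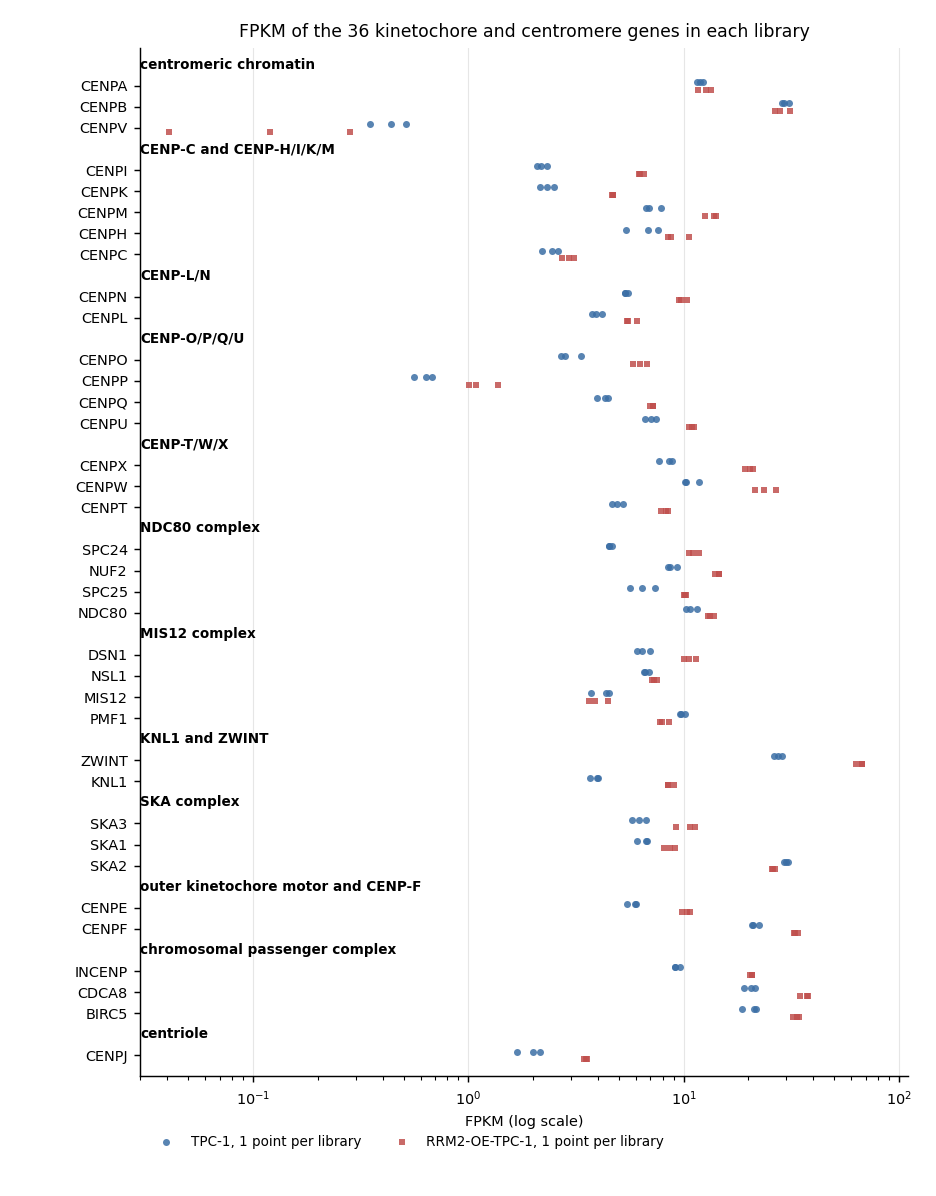
FPKM (x axis, log scale) of each of the 36 kinetochore and centromere genes (y axis, grouped by complex) in the 3 TPC-1 libraries (blue circles) and the 3 RRM2-OE-TPC-1 libraries (red squares). *ZWINT* is the most abundant in RRM2-OE-TPC-1, at 63.3 to 67.6 FPKM, and *CENPV* the least, at 0.0405 to 0.283 FPKM.

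Of the outer kinetochore genes, *KNL1* and *ZWINT* both passed both thresholds. *KNL1* (ENSG00000137812, chromosome 15, 40594020 to 40664342), the scaffold on which the checkpoint proteins BUB1 and BUB3 assemble, was at 3.65, 4.00 and 3.97 FPKM in TPC-1 and at 8.43, 8.42 and 8.97 FPKM in RRM2-OE-TPC-1 (log2 fold change 1.13, SE 0.0595, limma adjusted p = 1.50e-06). *ZWINT* (ENSG00000122952, chromosome 10, 56357228 to 56361275), the KNL1 partner that links it to the RZZ complex, was at 27.3, 28.6 and 26.2 FPKM against 67.6, 67.3 and 63.3 FPKM (log2 fold change 1.27, SE 0.0434, limma adjusted p = 1.98e-07). Neither gene's groups overlapped. The ratio of *ZWINT* to *KNL1* was 7.07 ± 0.441 in TPC-1 against 7.69 ± 0.548 in RRM2-OE-TPC-1 (SD, n = 3), and here the libraries of the groups did overlap.

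The NDC80 complex is a rod of a microtubule-binding NDC80/NUF2 end and a SPC24/SPC25 end that docks on MIS12 and CENP-T. All 4 genes rose by different amounts, where 34.9% of all tested genes rose. *SPC24* (ENSG00000161888, chromosome 19, 11131520 to 11155808) was at 4.66, 4.48 and 4.51 FPKM in TPC-1 and at 11.0, 11.8 and 10.6 FPKM in RRM2-OE-TPC-1 (log2 fold change 1.27, SE 0.0551, limma adjusted p = 5.86e-07). *NDC80* (chromosome 18, 2571511 to 2616635) was at 10.7, 10.3 and 11.5 FPKM against 13.3, 13.8 and 13.0 FPKM (log2 fold change 0.30, SE 0.0525, limma adjusted p = 0.00115). Both pairs of groups were separate, *SPC24* by a wide gap and *NDC80* by a narrow one. *NUF2* and *SPC25* lay between them with log2 fold changes of 0.70 and 0.65. The 4 subunits stood closer together in RRM2-OE-TPC-1: the highest was 2.38 ± 0.155 times the lowest in TPC-1 (*NDC80* over *SPC24* in all 3 libraries) and 1.41 ± 0.0140 times the lowest in RRM2-OE-TPC-1 (*NUF2* over *SPC25* in all 3 libraries). The ratio of *SPC24* to *NDC80* was 0.421 ± 0.0264 and 0.835 ± 0.0201 (SD, n = 3) in the respective groups, without overlap.

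The MIS12 complex, which joins the NDC80 complex and KNL1 to the inner kinetochore, did not move as a unit. *DSN1* (chromosome 20, 36751791 to 36773818), the subunit that Aurora B phosphorylates, was at 6.39, 6.10 and 7.01 FPKM in TPC-1 and at 10.6, 10.1 and 11.4 FPKM in RRM2-OE-TPC-1 (log2 fold change 0.71, SE 0.0691, limma adjusted p = 4.02e-05). *PMF1* (ENSG00000160783, chromosome 1, 156212993 to 156240042) was at 9.70, 9.63 and 10.2 FPKM against 7.93, 7.74 and 8.54 FPKM (log2 fold change -0.28, SE 0.0527, limma adjusted p = 0.00169). So *DSN1* rose and *PMF1* fell, each without overlap between the groups, and the ratio of *DSN1* to *PMF1* went from 0.661 ± 0.0283 to 1.32 ± 0.0187 (SD, n = 3). *PMF1* was the most abundant of the 4 subunits in every TPC-1 library and *DSN1* in every RRM2-OE-TPC-1 library. The readthrough gene *PMF1-BGLAP* covers 23.3% of the *PMF1* exon bases on the same strand and was at 0.131 FPKM on average. *NSL1* was at 6.88, 6.51 and 6.61 FPKM against 7.26, 7.53 and 7.10 FPKM, groups that do not overlap, and its log2 fold change of 0.13 (95% interval 0.01 to 0.24) had a limma adjusted p of 0.0501, which fell under the threshold without TPC-1 replicate 1. *MIS12* was at 3.72, 4.50 and 4.35 FPKM against 4.47, 3.86 and 3.64 FPKM, with overlapping groups and a log2 fold change of -0.07 (95% interval -0.30 to 0.17, limma adjusted p = 0.565).

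In the SKA complex, which loads onto microtubule-bound NDC80, *SKA1* and *SKA3* rose and *SKA2* fell. *SKA2* (ENSG00000182628, chromosome 17, 59109951 to 59155269) was at 29.9, 29.2 and 30.6 FPKM in TPC-1 and at 26.5, 25.9 and 25.7 FPKM in RRM2-OE-TPC-1, so each RRM2-OE-TPC-1 library was lower (log2 fold change -0.20, SE 0.0337, limma adjusted p = 9.69e-04). *SKA3* (chromosome 13, 21153595 to 21176602) was at 6.19, 5.74 and 6.65 FPKM against 9.26, 11.3 and 10.7 FPKM, each higher (log2 fold change 0.74, SE 0.0844, limma adjusted p = 1.03e-04). *SKA1* was at 6.04 to 6.74 FPKM against 8.09 to 9.15 FPKM (log2 fold change 0.41). *SKA2* was the most abundant of the 3 in all 6 libraries, and the highest over the lowest subunit was 5.00 ± 0.143 in TPC-1 against 3.02 ± 0.165 in RRM2-OE-TPC-1 (SD, n = 3). The ratio of *SKA3* to *SKA2* was 0.207 ± 0.0105 and 0.400 ± 0.0444.

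**Figure D4:**
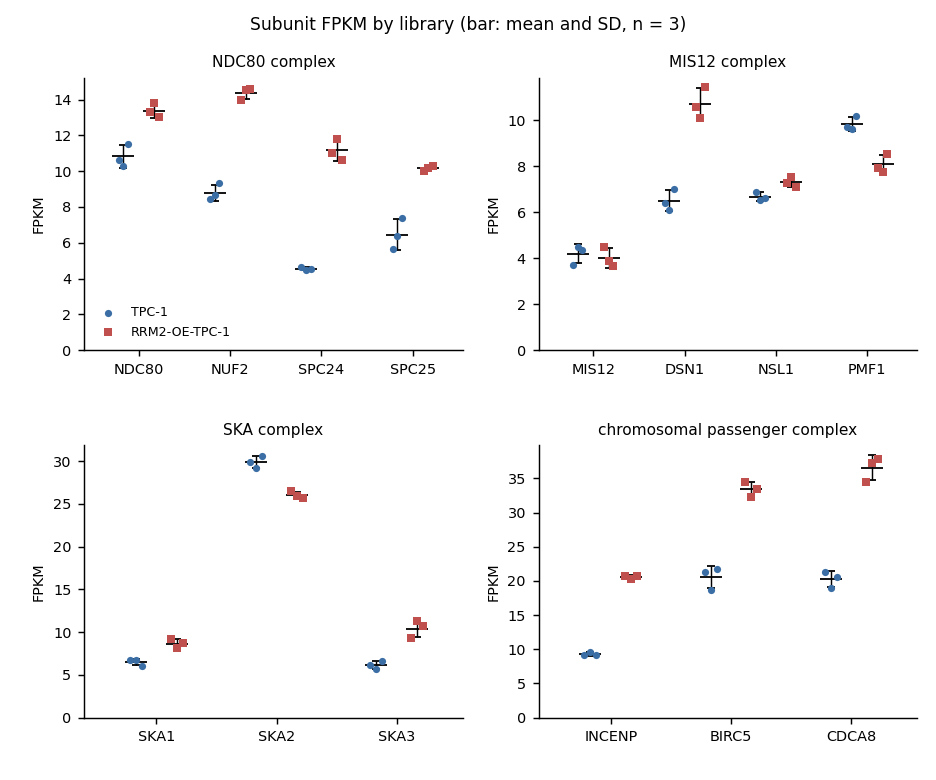
FPKM (y axis, from 0) of the subunits of 4 complexes (x axis) in each TPC-1 library (blue circles) and each RRM2-OE-TPC-1 library (red squares), with black bars for the mean and SD (n = 3). The spread among NDC80 complex subunits and among SKA subunits is smaller in RRM2-OE-TPC-1, *PMF1* and *SKA2* are lower there, and *MIS12* overlaps between the groups.

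The chromosomal passenger genes all rose, where 34.9% of all tested genes rose. *INCENP* (ENSG00000149503, chromosome 11, 62123973 to 62153163), the scaffold that binds and activates Aurora B, was at 9.11, 9.60 and 9.10 FPKM in TPC-1 and at 20.8, 20.3 and 20.7 FPKM in RRM2-OE-TPC-1, a gap many times the spread within either group (log2 fold change 1.14, SE 0.0394, limma adjusted p = 2.00e-07). *BIRC5* (chromosome 17, 78214186 to 78225636), which encodes survivin, was at 21.3, 18.7 and 21.7 FPKM against 34.5, 32.2 and 33.5 FPKM (log2 fold change 0.70, SE 0.0597, limma adjusted p = 1.91e-05). *CDCA8*, which encodes borealin, was at 19.0 to 21.4 FPKM against 34.5 to 37.9 FPKM (log2 fold change 0.85). *INCENP* was the lowest of the 3 in every library, and its ratio to *BIRC5* went from 0.454 ± 0.0519 to 0.616 ± 0.0130 (SD, n = 3), without overlap. The kinase gene *AURKB*, not among the 36, had a log2 fold change of 0.74 (limma adjusted p = 4.84e-05), and the germline paralog *AURKC* was too low to be tested.

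*CENPE* (chromosome 4, 103105806 to 103198409), the kinesin that carries chromosomes to the spindle equator, rose from 5.44, 6.00 and 5.94 FPKM to 10.7, 9.87 and 10.3 FPKM (log2 fold change 0.82, SE 0.058, limma adjusted p = 6.71e-06). *CENPF* (chromosome 1, 214603195 to 214664588), a large coiled-coil protein of the fibrous corona, rose from 21.1, 20.7 and 22.5 FPKM to 34.1, 32.8 and 32.6 FPKM (log2 fold change 0.63, SE 0.0415, limma adjusted p = 4.73e-06). Neither had overlapping groups. *CENPJ* (chromosome 13, 24882284 to 24922889) carries a CENP symbol but encodes a protein of centriole growth, and it rose as well, from 1.69, 2.00 and 2.15 FPKM to 3.51, 3.57 and 3.46 FPKM (log2 fold change 0.83, SE 0.0982, limma adjusted p = 1.28e-04).

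The other kinetochore and centromere genes, a list of 29 that holds the loading factors, checkpoint proteins, RZZ complex and shugoshins, moved in a similar range. Over all tested genes, 34.9% rose, 32.7% fell and 4.48% passed both thresholds in the higher direction. Of 28 tested in this list, 24 rose, 2 fell (*CLASP1* and *BOD1*) and 2 did not pass (*KIF18A* and *SGO1*). The median log2 fold change was 0.73, and 5 passed both thresholds. These were *ZWILCH* of the RZZ complex (1.17), the checkpoint kinases *TTK* (1.07) and *BUB1* (1.02), and the checkpoint genes *MAD2L1* (1.06) and *BUB1B* (1.05). The lowest was *CLASP1*, a microtubule plus-end protein, at 7.06, 7.52 and 7.44 FPKM in TPC-1 against 6.23, 6.06 and 5.86 FPKM in RRM2-OE-TPC-1 (log2 fold change -0.28, limma adjusted p = 0.00178). Beyond the kinetochore, 36 of 42 tested G2/M genes rose and 3 fell (median 0.62, 8 past both thresholds). All 40 tested S phase genes rose (median 0.96, 18 past both thresholds). The part of the G2/M and S phase genes in the results on the kinetochore genes was not tested.

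Some kinetochore genes start head to head with another gene, and at the median these neighbours had smaller log2 fold changes. Of the 35 tested, 14 had a tested gene on the opposite strand with its annotated start within 1000 bp, as had 18.7% of all tested genes, and 13 of these pairs are described here. Of the 13 neighbours, 5 rose and 3 fell, where 34.9% of all tested genes rose and 32.7% fell. Another 5 did not pass, and none passed both thresholds, beside 4.48% of all tested genes higher and 6.97% lower. Their median log2 fold change was 0.14, against 0.01 over all tested genes and 0.74 for the 13 kinetochore and centromere genes themselves. Of these 13 genes, 10 were above their neighbour, which is not shown to be particular to head-to-head pairs. *CENPX* and *CENPO*, which passed both thresholds, had neighbours that did not pass the test, *LRRC45* at a log2 fold change of 0.14 (limma adjusted p = 0.151) and *PTRHD1* at -0.05 (limma adjusted p = 0.643). *CENPQ* rose beside *MUT*, which fell (log2 fold change -0.19, limma adjusted p = 0.0221), and *NDC80* rose beside *METTL4*, 2 bp away, which fell (-0.35, limma adjusted p = 0.0125). The reverse was seen at *SKA2*, which fell while *PRR11*, a cell cycle gene 230 bp away, rose from 19.5 to 31.3 FPKM in the mean (log2 fold change 0.68, limma adjusted p = 2.20e-06). *MIS12* did not pass the test while *DERL2* rose (log2 fold change 0.31). *PTRHD1*, *NOL8*, *LRRC45* and *DERL2* share some exon bases with their kinetochore neighbour on the opposite strand. The differences between neighbours are given without a test.

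**Figure D5:**
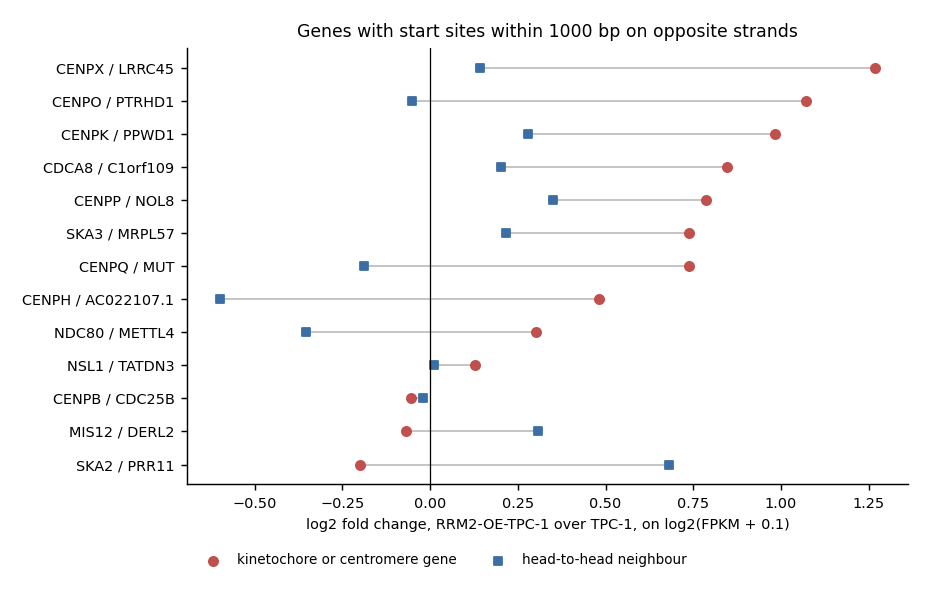
Log2 fold change (x axis) of 13 kinetochore and centromere genes with a tested head-to-head neighbour (red circles) and of the neighbour (blue squares), 1 gene pair per line on the y axis. In 10 pairs the circle lies to the right of the square, and *SKA2*, *MIS12* and *CENPB* are the 3 exceptions.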

How the data were processed

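Paired-end RNA sequencing was done on 3 TPC-1 and 3 RRM2-OE-TPC-1 libraries, described by the study as biological triplicates; separate cultures are not stated, so p-values measure the spread between these libraries. The labels describe ribosomal RNA removal with RNase R digestion, the study's methods poly(A) selection. The genotype labels of 2 RRM2-OE-TPC-1 libraries name RRM3 and RRM4, while their titles name RRM2, which was used. Per the methods and the submitters' processing notes, the authors trimmed reads, aligned them with HISAT2 (2.0.5) to GRCh38.p14, counted them with featureCounts (1.5.0) and deposited FPKM values per gene. Strand use in counting is not given in the sources used here. The gene identifiers and positions match GENCODE 29. Whole reads were recovered from the FPKM steps (100% of values whole within 0.01).

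Genes that reached 0.5 FPKM and 10 reads in 3 or more libraries were tested with limma (3.58.1, R 4.3.3; lmFit, eBayes with trend) on log2(FPKM + 0.1), all 6 libraries, group as the only term. With 3 libraries per group an exact permutation test of a single value cannot go under 0.1, so none is given. The fits were tried on simulated data in which few genes changed, each by more than the fold threshold. That trial says nothing about the smaller changes of most genes here. Named in full were the genes past both thresholds, those that fell, and the highest and lowest log2 fold change of each complex, the last rule also for the list of other kinetochore genes; ratios compare these extremes, with *HJURP* over *CENPA* added. Promoters printed were chosen after the values were seen. The members and lists were chosen with earlier results of these data known. Alternatives were 2 pseudocounts, 2 filters, 2 scalings, the replicate block, leaving out each library, voom on recovered reads, protein-coding genes alone and limma treat. A few neighbouring and related genes are not reported here, among them 1 neighbour pair.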

Additional observations from a re-analysis of the deposited data

How the results depend on the processing

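Of the 35 tested kinetochore and centromere genes, 2 fell in each of the alternatives that gave this count, and none passed both thresholds in the lower direction in any. The number past both thresholds in the higher direction was 8, with 4 under limma treat (without *CENPO*, *CENPW*, *INCENP* and *KNL1*), 6 with a pseudocount of 1 (without *CENPO* and *KNL1*) and 9 with a pseudocount of 0.01. Over all genes it was 1560 in both directions together, 618 under limma treat, 716 with a pseudocount of 1 and 1745 with voom on the recovered reads. The median log2 fold change of the 35 was 0.64 with a pseudocount of 1, and 0.69 to 0.75 when each library was left out in turn. Scaled to library totals it was 0.67, and the median over all tested genes was then -0.05 in place of 0.01. The cause of these shifts was not tested. No value changed sign past the threshold. *CENPC* lost its call without a filter and when scaled to library totals, and *NSL1* gained one under 5 alternatives.

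Same-numbered libraries did not deviate together (r = -0.01, -0.01 and -0.06), and no library correlated best with its own number. Replicate numbers were used as names and not as pairs in the main fit. With 3 libraries per group, this check cannot exclude a batch shared by same-numbered libraries. With the replicate number as a block, 8 genes passed both thresholds, 28 rose (*CENPC* was lost, adjusted p = 0.0625), 2 fell, the median stayed at 0.73 and 1566 genes in all passed both thresholds.

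Depth limits the low genes most: *CENPV* had 2 to 25 reads per library and, fitted without a filter, a log2 fold change of -1.22 (SE 0.433, limma adjusted p = 0.0890).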
